A study of Mus musculus with 4 samples.

Results

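The BCL2 family was examined in RNA from ID8G cells, GFP-expressing cells of the ID8 mouse ovarian cancer line, and from GO2 cells, which were derived from ID8G by growth in mice. The 10 genes examined were Bcl2l14, Bcl2, Bcl2l1, Bcl2l2, Mcl1, Bax, Bak1, Bcl2l11, Bid and Bad. They are covered by 19 of the 56605 array probes that are not controls, and a probe was assigned to a gene when its RefSeq accession carries that gene's symbol (22907 symbols in all). The genes were chosen with their GO2 and ID8G values already known, because Bcl2l14 has the largest measured loss on the array, so their levels and differences are given as a description. Counts of calls among them stand only beside the same counts over all genes. Standard errors and intervals come from the limma fit, which draws each probe's spread between arrays toward that of all tested probes.

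The proteins of this family control whether the outer mitochondrial membrane is opened during apoptosis. Prosurvival members (BCL2, BCL-XL, BCL-W and MCL1) hold the effectors BAX and BAK in check, and the BH3-only proteins (among them BIM, BID and BAD) bind the prosurvival members or engage the effectors directly. Once the effectors form pores, cytochrome c leaves the mitochondria and caspases are activated. Tumor cells commonly depend on BCL-XL or MCL1, the products of Bcl2l1 and Mcl1, for survival.

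ID8G cells are the parental line and were measured on 2 arrays. GO2 cells were measured on the other 2 arrays. They are GFP-positive, CD45-negative cells sorted from omental tumors after 2 rounds of intraperitoneal growth in C57BL/6J mice and then kept in culture in the same medium as ID8G cells. GO2 is 1 selected line, and whether the 2 arrays of a line hold separate cultures is not given in the sources used here. Errors and p-values thus rest only on the spread between these arrays, over all tested probes, which may be technical.

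A level is a log2 background-corrected intensity set against the array's own 75th percentile, so that 0 marks a signal at that percentile, and a difference is the GO2 mean minus the ID8G mean on that scale. Levels of different probes were not compared with each other, though those of marker genes were summed. In these bulk samples, fewer cells with a transcript and less of it per cell cannot be told apart. Of the 56605 probes, 48.6% to 51% were well above background on each array, and 28368 probes (13212 gene symbols) entered the fit. Replicates correlated at 0.997 (Pearson, across tested probes, which are not independent) and arrays of different lines at 0.967 to 0.968. After scaling, the 7 spike-in transcripts measured on every array were higher in GO2 by 0.15 to 0.27. They also differed between the arrays of a line. The dimmest read -1.08 and -0.84 in ID8G and -0.735 and -0.65 in GO2. The brightest read 9.11 and 9.19 in ID8G and 9.28 and 9.325 in GO2. The median of all tested probes was -0.02, or -0.23 when the arrays were scaled to the spike-ins. Keratins Krt8 and Krt18 and the ovarian surface genes Wt1 and Msln were measured in both lines. Of the 6 macrophage and leukocyte genes, Ptprc (CD45), Adgre1 and Lyz2 were not well above background on any array, while the brightest probes of Itgam, Csf1r and Cd68 were on all 4. The epithelial genes Epcam and Krt7 were not well above background on any array. By the array identifiers, each line appears to have had its own row or column of a single slide, which the sample labels do not state. Slide position and cell line then cannot be told apart.

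The array carries 1 probe for Bcl2l14, A_55_P2157093, and it was measured on all 4 arrays. Bcl2l14 encodes BCL-G, a family member whose part in cell death is less settled than that of the other members. Its level stood at 1.75 and 1.74 in ID8G, and at -3.57 and -3.62 in GO2. Both GO2 values lay far below both ID8G values, and the difference was -5.34 ± 0.05 (SE, 2 arrays per line), a level 40.5-fold lower in GO2. Both GO2 spots were called well above background, although the lowest such signals on these arrays were -3.77 and -3.85, close under the Bcl2l14 level. When background was instead corrected by the normexp method, which fits the background of each array, the difference was -3.95. This setting also added an offset of 50 to every intensity, which by itself shrinks differences of dim signals. The parts of the fit and of the offset were not separated. Among genes measured on all 4 arrays, the next largest losses were in Onecut2 at -4.03 and Prelp at -3.92.

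RefSeq annotates 2 start sites for Bcl2l14 on chromosome 6 (GRCm38.p6). The windows of 300 bases around them are printed because this gene carries the largest loss, beside the CpG-richest of the 3 windows of Bcl2l1, the other gene of the family with a difference beyond 1. Capitals mark CG dinucleotides.
Bcl2l14 window 1, chr6:134396079-134396378, + strand: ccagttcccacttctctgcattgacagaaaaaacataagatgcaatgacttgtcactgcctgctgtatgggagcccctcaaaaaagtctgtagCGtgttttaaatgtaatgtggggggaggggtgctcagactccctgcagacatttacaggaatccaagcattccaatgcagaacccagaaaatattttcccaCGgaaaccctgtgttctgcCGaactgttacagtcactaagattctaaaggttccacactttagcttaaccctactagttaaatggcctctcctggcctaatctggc
Bcl2l14 window 2, chr6:134414178-134414477, + strand: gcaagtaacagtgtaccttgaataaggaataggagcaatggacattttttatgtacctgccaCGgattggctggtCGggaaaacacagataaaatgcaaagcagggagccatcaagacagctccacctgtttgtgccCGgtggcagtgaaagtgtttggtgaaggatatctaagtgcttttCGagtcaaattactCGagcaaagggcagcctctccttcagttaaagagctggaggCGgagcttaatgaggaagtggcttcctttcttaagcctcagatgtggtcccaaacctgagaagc
Bcl2l1 window 3, chr2:152831679-152831978, - strand: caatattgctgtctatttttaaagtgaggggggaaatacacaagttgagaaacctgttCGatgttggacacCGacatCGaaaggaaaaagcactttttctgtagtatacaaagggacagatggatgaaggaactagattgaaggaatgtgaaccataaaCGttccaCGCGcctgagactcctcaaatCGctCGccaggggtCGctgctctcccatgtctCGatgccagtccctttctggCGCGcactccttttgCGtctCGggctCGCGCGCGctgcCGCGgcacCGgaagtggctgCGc

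Window 1 of Bcl2l14 had a GC content of 45.7% and 3 CG dinucleotides, and window 2 had 47.3% and 6. Over all 32851 windows of the RefSeq table the medians were 52.7% and 7. The Bcl2l1 window printed had 22 CG dinucleotides, while the other 2 windows of that gene had 1 and 14. The windows of the other members held from 9 (Bcl2l2) to 44 (Bcl2). Every window was searched on both strands for the letters of 4 motifs, which can share bases with each other. Both Bcl2l14 windows held the CCAAT box (CCAAT), found in 37.4% of all windows. Neither held the GC box (GGGCGG), found in 35.7%. The E-box (CANNTG), found in 72.3%, was in window 2 alone. The TATA box, searched as TATAAA and found in 13.6% of all windows, was in no window of the 10 genes. A match is a description of the letters and not a binding site.

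**Figure D1:**
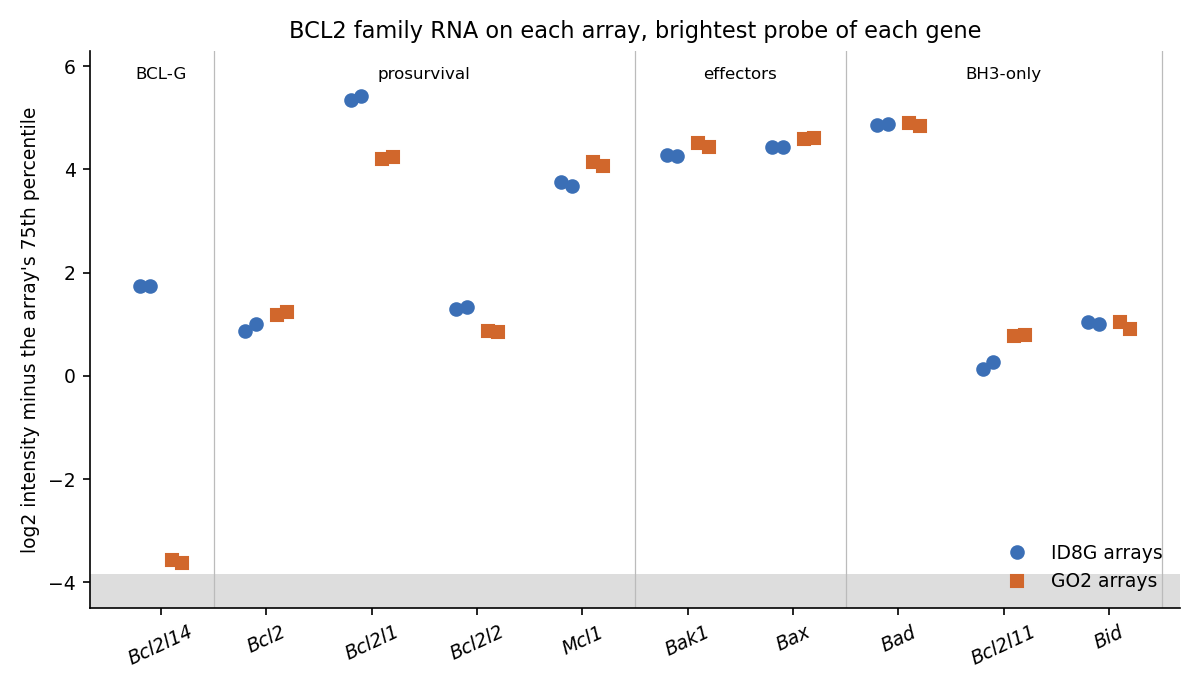
Levels of the 10 genes on each array, with the brightest tested probe of each gene on the x axis, grouped by role, and the level (log2, relative to the 75th percentile of the array) on the y axis. Circles are the 2 ID8G arrays and squares the 2 GO2 arrays, and no probe was well above background on any array in the gray band. Bcl2l14 drops from about 1.74 to -3.60, just over that band, and Bcl2l1 lies lower in GO2, while the arrays of Bad and of Bid overlap between the lines.

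The prosurvival genes did not share a direction. Bcl2l1 encodes BCL-XL, which binds BAX, BAK and BH3-only proteins, and it has 5 probes. The brightest, A_55_P1974877, read 5.35 and 5.42 in ID8G and 4.21 and 4.25 in GO2. The GO2 values lay below both ID8G values, by 1.16 on the log2 scale (difference -1.16 ± 0.06, SE), or 2.23-fold. Every other Bcl2l1 probe also had both GO2 arrays below both ID8G arrays, with differences of -1.21, -0.97, -0.92 and -0.81. These probes stand for 3 RefSeq transcripts and share a gene, so they are not independent measurements of the loss. At a minimum log2 difference of 1, the 2 probes at -1.21 and -1.16 were inside the threshold and the probe at -0.97 was just outside it.

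Mcl1, whose short-lived protein guards chiefly BAK, read 3.75 and 3.68 in ID8G and 4.15 and 4.06 in GO2. Both GO2 arrays were higher, with a difference of 0.39 ± 0.06 (SE), and it was 0.18 with spike-in scaling. Bcl2l2, which encodes BCL-W, read 1.30 and 1.33 in ID8G and 0.87 and 0.86 in GO2, a difference of -0.45 ± 0.05 with both GO2 arrays lower. Bcl2, the founding prosurvival gene, has a probe for each of 2 transcripts. The brighter read 0.88 and 1.003 in ID8G and 1.18 and 1.23 in GO2, a difference of 0.27 ± 0.07, which was 0.06 with spike-in scaling. On the dimmer probe the lines overlapped, with 0.37 and 0.09 in ID8G and 0.34 and 0.38 in GO2.

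The effectors Bax and Bak1 encode the proteins that form the pores. Bak1 read 4.27 and 4.26 in ID8G and 4.51 and 4.44 in GO2, a difference of 0.21 ± 0.06 (SE). The brighter Bax probe read 4.43 on both ID8G arrays and 4.59 and 4.61 in GO2, a difference of 0.17 ± 0.05. On the second Bax probe the lines overlapped, with a difference of 0.01 ± 0.07. Scaled to the spike-ins, the difference was 0.003 for Bak1 and -0.03 for Bax, which changes the sign for Bax. The effector differences were thus of the size of the spike-in differences, 0.15 to 0.27, that remained after scaling.

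The BH3-only genes differed among themselves. Bcl2l11 encodes BIM, which can bind every prosurvival member and also engage the effectors. Its brightest probe, A_52_P158527, read 0.14 and 0.28 in ID8G and 0.78 and 0.79 in GO2, a difference of 0.58 ± 0.07 (SE) and the largest on the higher side among the 10 genes. With spike-in scaling the difference was 0.37. Its other probes did not share this. On 2 dimmer probes the lines overlapped, with differences of -0.18 ± 0.12 and 0.13 ± 0.13, and the remaining probe was not well above background on any array and was not tested. One of the dimmer probes carries the same transcript accession as the brightest, so the accession does not separate them.

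Bid, whose product is cleaved by caspase-8 and carries the death receptor signal to mitochondria, read 1.05 and 1.002 in ID8G and 1.05 and 0.92 in GO2. The lines overlapped, with a difference of -0.04 and a 95% confidence interval from -0.24 to 0.15. Bad, whose product is held inactive by phosphorylation downstream of growth factor signals, read 4.86 and 4.88 in ID8G and 4.90 and 4.84 in GO2. Its lines overlapped too, and the interval of the difference ran from -0.15 to 0.15. With spike-in scaling the difference was -0.25 for Bid and -0.21 for Bad, each below the interval given here.

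**Figure D2:**
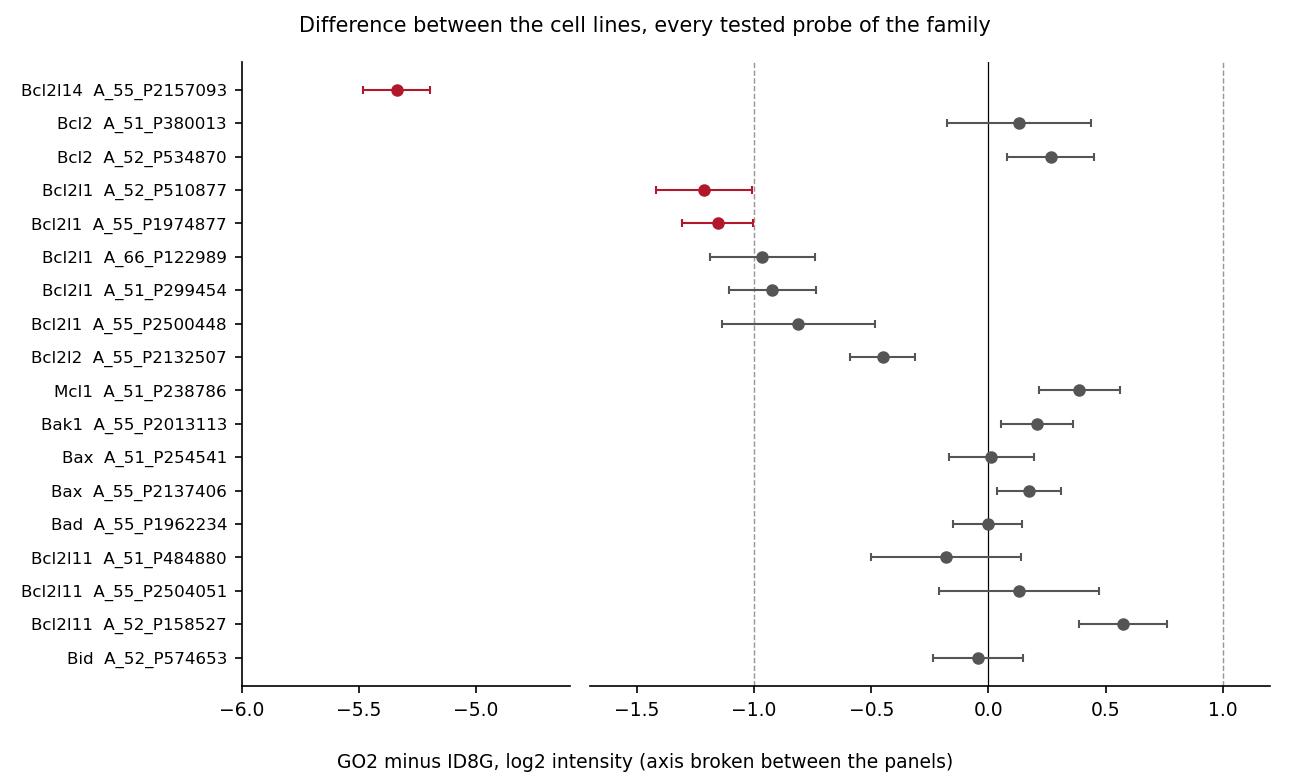
Difference between GO2 and ID8G for each of the 18 tested probes of the 10 genes, in log2 intensity, with the gene and probe on the y axis and 95% confidence intervals from the limma fit as bars. The x axis is broken at equal scale in both panels, dashed lines mark -1 and 1, and red marks probes that met the calling rule. The 5 Bcl2l1 probes lie together between -1.21 and -0.81, and the Bcl2l11 probes spread from -0.18 to 0.58.

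Counted over the family, 5 of the 10 differences were above 0 and 5 below it, with a median of 0.08, and with spike-in scaling 4 were above and 6 below, with a median of -0.12. Without spike-in scaling the median over all 13212 gene symbols was 0 and the median absolute difference was 0.21. With spike-in scaling the median of all tested probes was -0.23. Called at an adjusted p below 0.05 (limma, Benjamini-Hochberg) with a log2 difference of at least 1, 0 of the 10 genes were higher and 2 were lower, Bcl2l14 and Bcl2l1. Over all gene symbols 6.44% were called higher and 4.33% lower. Among probes, 1277 were called higher and 947 lower, or 1107 and 1428 with spike-in scaling. By adjusted p alone 3 genes of the family were higher (Bcl2, Mcl1 and Bcl2l11) and 3 lower (Bcl2l14, Bcl2l1 and Bcl2l2), where the background is 22.8% and 22.5%. With spike-in scaling the brightest probes of Bcl2 and Mcl1 no longer passed. Of the 18 tested probes, 5 had both GO2 arrays above both ID8G arrays and 7 below, where all tested probes gave 33.9% and 39.6%. These counts come from the comparison that chose the genes, and nothing is read from them.

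The apoptosis genes around the family were taken from a list of 53 genes in 11 groups by role, of which 51 had a probe and 46 were tested. In this list 1 gene was called higher and 1 fell, Bmf, against the background of 6.44% and 4.33%. The median difference was -0.02, and 44 genes were not called. By adjusted p alone 6 genes were higher and 15 lower, where 22.8% and 22.5% of gene symbols were.

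Bmf encodes a BH3-only protein that is bound to the cytoskeleton and is known for its part in the death of detached cells. Its brightest probe read 1.65 and 1.69 in ID8G and 0.19 and 0.14 in GO2. It fell by 1.51 on the log2 scale (SE 0.05, limma adjusted p = 0.000429), or 2.84-fold. Its second, dimmer probe differed by -0.77 and did not meet the size threshold. Of the other BH3-only genes outside the family list, Bbc3 (PUMA) differed by -0.35 and Pmaip1 (NOXA) by -0.32, neither called, and Bik and Hrk were not well above background on any array.

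Among BCL2-like and BNIP3-type genes the mitophagy receptors Bnip3 and Bnip3l stood on opposite sides, at 0.82 and -0.85, neither called, and Bnip3l was called lower with spike-in scaling, where both of its probes stood at -1.06. Of the genes whose products leave mitochondria, the largest difference was in Cycs, cytochrome c, at -0.43. In the outer membrane group Vdac2, a channel that binds BAK, differed by -0.19, and the effector Bok by 0.04. Apaf1, the apoptosome scaffold, differed by 0.25. In the death receptor arm the largest was Tnfrsf10b, a TRAIL receptor, at 0.31 on its brightest probe. On a dimmer probe, not well above background on either GO2 array, the difference was -0.405, without a call. Among inhibitor of apoptosis genes the largest was Birc2 at -0.25, and among upstream regulators it was the co-chaperone Bag3 at 0.52. The prosurvival genes Bcl2a1d and Bcl2l10 were not well above background on any array, nor was Bcl2l15, and Bcl2a1a and Bcl2a1b had no probe matched by accession.

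**Figure D3:**
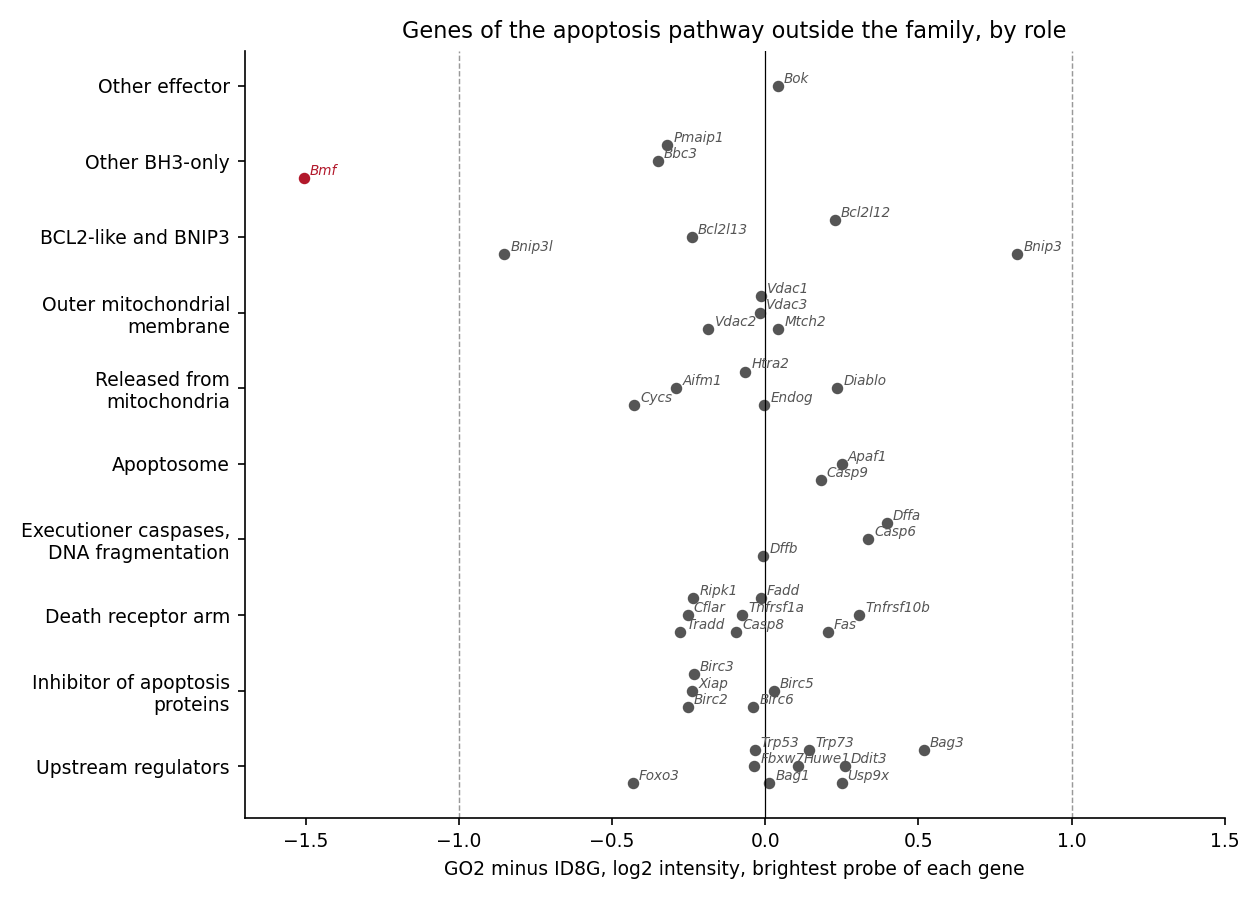
Difference between GO2 and ID8G in log2 intensity (x axis) for the brightest tested probe of the genes outside the family that are described here, grouped by role on the y axis. Dashed lines mark -1 and 1, and red marks genes that met the calling rule. Of the genes plotted, only Bmf at -1.51 lies past a dashed line, and the outer membrane genes lie within 0.19 of 0.

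Genes next to Bcl2l14 were taken in the order of the RefSeq gene table. Of the 8 nearest, 4 on either side, only Lrp6 and Mansc1 had a probe, the other 6 being long noncoding RNA genes. Lrp6, a WNT co-receptor, had differences of -0.58 and -0.62 on its 2 probes, with limma adjusted p = 0.00579 and 0.0111, and did not meet the size threshold. Mansc1 was well above background in GO2 alone, so that only a bound of at least 1.48-fold higher there can be given. This bound is under the 2-fold size threshold. Its call rests on ID8G signals that were not well above background, and nothing is read from it. Etv6, the nearest gene on the other side with a measured probe, differed by -0.03 ± 0.07 (SE). Farther out on the Lrp6 side, Borcs5 differed by -0.16 and Dusp16 by -0.64, neither meeting the size threshold. Beyond Etv6, the genes Kap, Gm5885 and 5530400C23Rik were not well above background on any array. These genes outside the 8 nearest were picked after their values were seen.

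The genes whose pattern over the 4 arrays was nearest to that of Bcl2l14 were sought among the 13212 gene symbols, by the Euclidean distance between levels centered on each gene's mean. Among the nearest were Etv1 at a distance of 0.36, Cldn2 at 0.41, Ddx4 at 0.91 and Gm5833 at 1.02. Etv1 was not well above background on a GO2 array and was at least 16.4-fold lower there, and Cldn2 was measured on 1 of the 2 GO2 arrays. The bounds for Ddx4 and Gm5833 were 4.94-fold and 6.34-fold. With 4 arrays, likeness of this kind chiefly restates a large loss with close replicates.

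Some cell type markers differed between the lines, chiefly fibroblast genes. Of 6 fibroblast genes 4 rose in GO2 (Col1a1, Col1a2, Col3a1 and Pdgfra), with a median of 4.20 over the 5 tested, Dcn differed by -0.63 without a call, and Lum was not well above background. Their summed linear signal, in units of the array's 75th percentile, was 68.5 to 71.3 in ID8G and 150 on both GO2 arrays. Dcn, at 6.074 and 6.015 in ID8G, made up most of the ID8G sum, and the brightest genes weigh most in every such sum. For the 6 epithelial genes the sums were 543 to 561 and 284 to 285, with Krt19 called lower at -1.65. For the 6 macrophage and leukocyte genes they were 20.6 to 23.4 and 20.6 to 20.7, with 0 of 3 tested genes called. Most of these sums came from the brightest Itgam probe, at 4.18 and 4.39 in ID8G. The dimmer Itgam probe was well above background on 1 GO2 array only. Of the 4 mesothelial or ovarian surface genes, Upk3b was called higher at 1.08, and Wt1, Msln and Lrrn4 were not called, with sums of 102 to 113 and 89.6 to 91.7. With spike-in scaling Upk3b stood at 0.88 and lost its call, while Msln at -1.03 and Krt18 at -1.02 were called lower. Of the 4 adipocyte genes, Fabp4 was called lower, by at least 6.28-fold on its brightest probe, since neither GO2 array was well above background. Its list summed to 0.848 to 0.897 and 0.458 to 0.502. The lymphocyte gene Cd3e and the endothelial gene Pecam1, the only tested genes of their lists, were not called. The part of these changes in the differences of the BCL2 family was not tested.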

How the data were processed

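RNA of ID8G and GO2 cells was hybridized to 4 Agilent 1-color arrays, 2 per cell line, after Cy3 labeling. The authors deposited scanner files with the intensity of each spot, which Feature Extraction 11.5.1.1 had corrected for background only, and a table of log2 values from GeneSpring, used only as an alternative. The array number limits the precision. Spots marked as outliers were left out, spots of a probe were averaged on the log2 scale, and each array's 75th percentile was subtracted. The fit took every probe that both arrays of a line, or of each line, had well above background. It was made in R 4.3.3 (limma 3.58.1) without covariates, with Benjamini-Hochberg adjustment over 28368 probes. The calling rule was a difference of 1 or more on the log2 scale together with an adjusted p under 0.05, and a gene by any called probe. In simulated data for this comparison 181 of 200 changed probes (90.5%) among 28344 were called in the right direction, with 2 unchanged probes called. Every change put in was well past the threshold of 1, so recovery of differences near it was not examined. An exact permutation test of 2 against 2 arrays cannot go below p = 0.333. Symbols came from RefSeq accessions through a GRCm38.p6 table (58.3% of probes matched), which also gave the promoter windows. The array was designed on mm9, so probe coordinates are not given.

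A gene's value is its brightest tested probe. All 10 family genes were named, with called genes and the gene of largest difference in each group of the wider list, the 5 genes nearest to Bcl2l14 in pattern and its 8 neighbors. A few genes that these rules select are not reported here. The genes, lists and rules were chosen with earlier results of these data known. Bounds set the brighter line's mean against the lowest signal well above background on the dim arrays. Where the probe's own signal was higher than that, it was used instead. Figures were drawn with matplotlib 3.10.9. The alternatives were other background correction, scaling, filters, variance models, tests and thresholds, the deposited log2 table, 1 value per gene, a replicate block, and each array left out.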

Additional observations from a re-analysis of the deposited data

How the results depend on the processing

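Bcl2l14 and Bcl2l1 were called lower under every alternative tried except the methods' t-test with Welch correction, where Benjamini-Hochberg adjustment left 0 of the 10 genes called lower, 0 probes called higher and 3 called lower on the whole array, and 0 genes of the wider list called in either direction. At an unadjusted p under 0.05 and the same size threshold, Welch's test gave 1001 probes higher and 728 lower, and limma 1320 and 986. The Bcl2l14 difference was -3.95 with normexp correction, whose offset of 50 also enters its probe counts. It was -5.37 with quantile normalization and with median centering, -5.54 with spike-in scaling, and -5.36 to -5.31 with an array left out. The whole array gave 1277 probes higher and 947 lower, which became 818 and 517 with normexp, 666 and 606 when all 4 arrays had to be well above background, and 4835 and 5348 by adjusted p alone. Spike-in scaling gave 1107 higher and 1428 lower, which turns the balance. In the wider list 0 genes were called higher with normexp or spike-in scaling, 2 were called lower with spike-in scaling, and 6 and 15 were higher and lower by adjusted p alone, which also gave 3 family genes higher. Replicate numbers did not pair the arrays (the deviations of same-numbered arrays correlated at 0.03 across tested probes), and with a replicate block the Bcl2l14 difference stayed at -5.34 and the family counts at 0 and 2. With an array left out the differences of Bid and Bad ranged from -0.11 to 0.02 and from -0.03 to 0.03, and over all settings from -0.25 to 0.02 and from -0.21 to 0.03. The slide as a block was not run because the arrays appear to lie on 1 slide, where position cannot be told apart from cell line. Over all settings the counts were within 1.5 times the reported count, or were 0 where it was 0, in 90 cases. In the other 18 cases they were not. Many of the counts compared were very small. Signal over background limits what can be said of dim probes, Bcl2l14 in GO2 among them.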
